A study of Mus musculus with 18 samples.

Results

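The SR splicing factor genes encode serine- and arginine-rich proteins that choose splice sites. The 10 genes described here are Srsf1, Srsf2, Srsf3, Srsf4, Srsf5, Srsf6, Srsf7, Srsf9, Srsf10 and Srsf11, taken by symbol from a table of nascent transcription of 21859 protein-coding genes in murine embryonic stem (ES) cells. With them are described the promoter upstream transcripts (PROMPTs) listed under the same symbols, 8 of 32253 PROMPTs. The libraries came from E14 ES cells grown with LIF and the MEK and GSK inhibitors, all of which carried osTIR1, the rice ubiquitin ligase subunit that binds the degron in the presence of auxin. Untagged cells and SPT16-AID clones 1 and 2, independently targeted lines in which endogenous SPT16 carried the mini-AID degron and V5 tags, were each treated for 24 h with 0.1% EtOH or with 3-indole acetic acid (IAA). The labels give 500 nM IAA, while the study's methods give the dose in µM. Each of these 6 conditions had 3 TT-seq libraries, 18 in all, which the study treats as technical replicates of a line and which were made from RNA labelled with 4-thiouridine for 5 min.

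The deposited tables hold 1 level per feature over all libraries, the baseMean, which is the authors' mean of normalized read counts. Which libraries were averaged is not listed, but the tables compare control with SPT16-depleted cells, so both kinds are in the mean and the values below describe how strongly these genes were transcribed in the series as a whole. They do not show how transcription responded to depletion, and the columns that do, the authors' own comparison, were not used here. No SD, interval or test between libraries can be had from a single mean, so it cannot be said which neighbours in an order of levels differ beyond their spread. Reads were present for 20157 of the genes. The 8 ES cell markers examined, from Sox2 at a baseMean of 5985 to Tfcp2l1 at 72139.8, all lay in the top 25% of genes. The defining markers of fibroblasts (6 genes, from 1.97 to 25.7) and of blood (3 genes, from 0.382 to 56.1) were below the median of genes with reads, at percentile 34 or lower. Markers of primitive endoderm, neural cells and mesoderm lay between 0 (Tubb3) and 455 (Gata4). All of these but Gata4, at percentile 50.8, were below the median of genes with reads. Whether reads lost to an overlapping gene lowered the value of Tubb3, whose PROMPT had a baseMean of 2.09, was not examined.

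SR proteins bind exonic sequences through RNA recognition motifs. Through their RS domain, a tail of arginine and serine repeats, they help to bring U1 snRNP and U2AF to nearby splice sites. Kinases of the SRPK family phosphorylate the RS domain in the cytoplasm before nuclear import, and CLK kinases phosphorylate it further in the nucleus. Many SR genes limit their own output through poison exons, alternative exons with early stop codons that send the transcript to nonsense-mediated decay (NMD). A PROMPT is a short-lived RNA made from the same promoter region as a gene, on the opposite strand and away from the gene.

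The SR genes were among the more strongly transcribed genes of these cells. Srsf3, which encodes the smallest SR protein and takes part in mRNA export, had the most reads, with a baseMean of 25766, at rank 231 of the genes with reads. Srsf11 had a baseMean of 11136 and Srsf7, whose protein carries a zinc knuckle, of 10308. The next 6 genes lay close together. Their baseMean values were 8429 for Srsf5, 8314 for Srsf10, whose protein represses splicing when dephosphorylated, 8152 for Srsf2, 7905 for Srsf1, 7707 for Srsf4, which encodes a large SR protein with a long RS domain, and 7079.9 for Srsf6. In this group each gene was at most 1.09-fold above the next. Srsf9, at 1486 and percentile 65.1, was the only one of the 10 outside the top 25% of genes with reads, whose lower edge is a baseMean of 2900.2. The median of the 10 was 8233, against 421 over all genes with reads, and together they held 0.172% of the summed gene levels. A baseMean counts reads and so also grows with the length of a gene, which the per-length values below take into account.

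**Figure D1:**
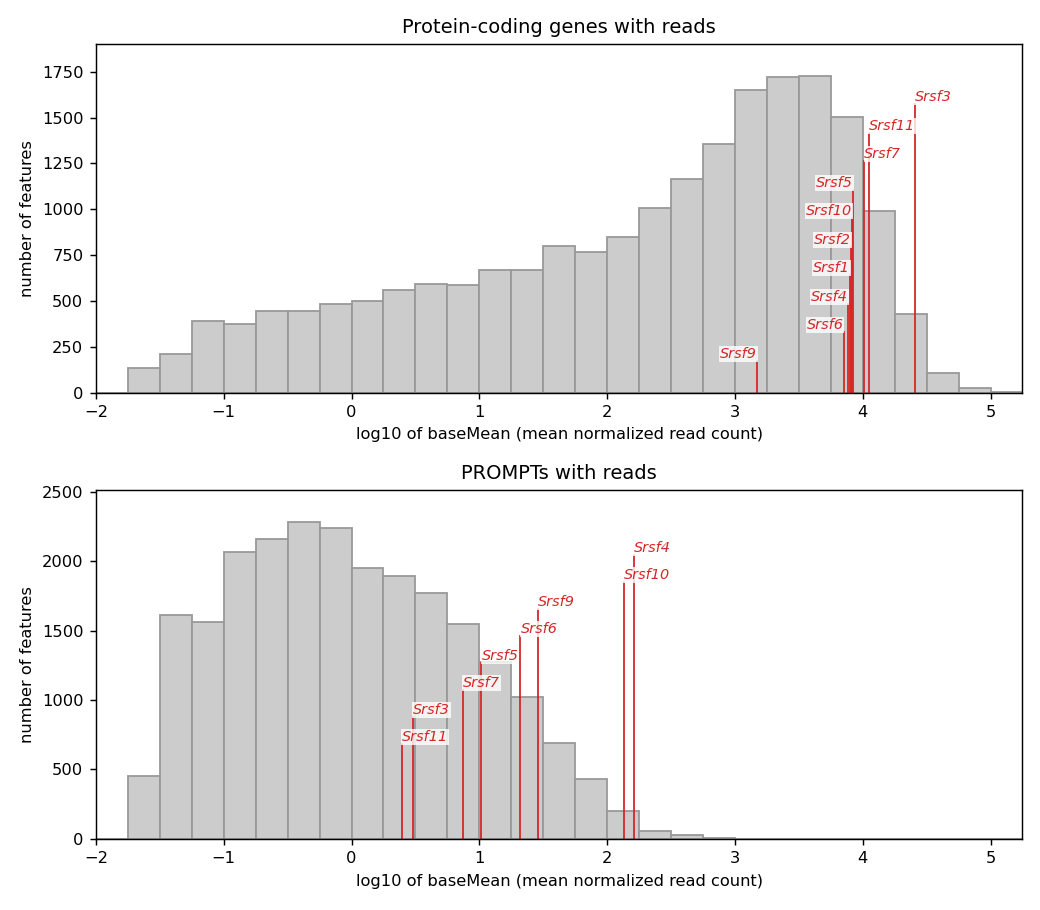
Histograms of log10 baseMean for the 20157 genes with reads (top) and the 23257 PROMPTs with reads (bottom), with a red line at the level of each SR gene or its PROMPT (the height of a line has no meaning). Srsf9 stands at 1486 and Srsf3 at 25766, with the other 8 genes from 7079.9 to 11136, while the 8 PROMPTs spread from 2.49 for Srsf11 to 162 for Srsf4.

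Levels of different genes were compared per kb, once over the exons of all annotated transcripts and once over the whole gene span, because the sources do not settle whether introns were counted. Lengths came from Gencode vM21 on GRCm38, which held 99.8% of the genes of the table. Per kb of exons, Srsf3 was highest, at 3262 (percentile 97.4 of genes with reads), followed by Srsf7 at 2904 and Srsf2 at 2756. Srsf4 had 2164 and Srsf5 had 2114 per kb of exons. Values between 1187 and 1472 per kb of exons were found for Srsf6, Srsf1, Srsf11 and Srsf10, in that order. Srsf9 was again lowest, at 899 per kb of exons, but on this scale it lay at percentile 81.3. Thus all 10 genes were in the top 25% per kb of exons, whose lower edge is 638, and 5 of them in the top 10%.

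Most SR genes are short. The annotated spans run from 3194 bp for Srsf2 to 28090 bp for Srsf4, and 8 of the 10 are below the median span of 19572 bp. Exons cover 92.6% of Srsf2, 89.5% of Srsf1 and 86.0% of Srsf6, but 28.0% of Srsf9 and 12.7% of Srsf4. Per kb of gene span the order therefore changed. Srsf2, whose protein stays in the nucleus and activates splicing through exonic enhancers, was highest at 2552, with Srsf3 next at 2398 and Srsf5 at 1685. Srsf7 had 1426, Srsf6 1266 and Srsf1, which encodes the well-studied splicing activator also known as ASF, 1238 per kb of span. Srsf10, Srsf11, Srsf4 and Srsf9, in which, as in Srsf7, exons cover less than 50% of the span, had 587, 426, 274 and 252 per kb of span. All 10 genes were in the top 10% of genes on this scale, from percentile 90.9 for Srsf9 to 99.7 for Srsf2 and Srsf3. The highest and the lowest member differed 3.63-fold per kb of exons and 10.1-fold per kb of span.

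**Figure D2:**
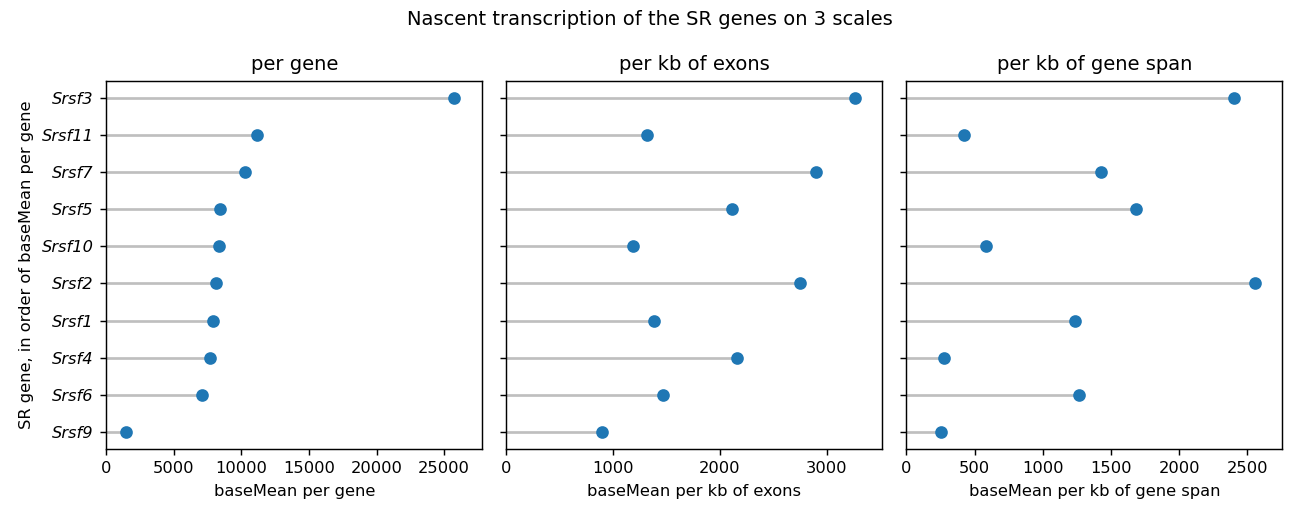
Level of each SR gene as baseMean per gene (left), per kb of exons (middle) and per kb of gene span (right), each point being the single deposited mean, with genes in the order of the left panel. Srsf9 is lowest on every scale, Srsf3 is highest on the first and second, and Srsf4 moves from 2164 per kb of exons to 274 per kb of span.

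By annotation on GRCm38, Srsf3 lies on chromosome 17 from 29032628 to 29043373 (plus strand) and Srsf7 on the same chromosome from 80200080 to 80207307 (minus strand). Srsf1 lies on chromosome 11 from 88047373 to 88053755 (plus strand) and Srsf2 on the same chromosome from 116849901 to 116853094 (minus strand). Srsf2 overlaps Mettl23 and Mfsd11, Srsf1 overlaps Gm11508 and Srsf4 overlaps Gm12992, each on the opposite strand, which strand-specific counting keeps apart. Srsf4, on chromosome 4 from 131873617 to 131901706, overlaps A930004J17Rik on its own strand, and Srsf11, on chromosome 3 from 158010473 to 158036639, overlaps Gm43362 on its own strand. Reads in those stretches could have been split or left out, depending on whether the counted annotation held these non-coding models. Srsf10 lies on chromosome 4 from 135855747 to 135869908, Srsf5 on chromosome 12 from 80945504 to 80950507, Srsf6 on chromosome 2 from 162931528 to 162937121 and Srsf9 on chromosome 5 from 115327177 to 115333080. None of these 4, nor Srsf3 or Srsf7, overlaps another annotated gene.

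Transcripts marked as targets of NMD are annotated for 9 of the 10 genes, the exception being Srsf10. They number from 1, for Srsf5, Srsf6, Srsf7 and Srsf9, to 3 for Srsf11. Such a transcript is annotated for 21% of all listed genes, and for 34.4% of those in the top 25% by baseMean. Retained-intron transcripts are annotated for 8 of the 10, all but Srsf9 and Srsf10, with 11 of the 19 transcripts of Srsf11 in that class. The share over all genes is 41.8%, and over the top 25% 68.7%. These are properties of the annotation. A baseMean over a whole gene does not show which of its transcripts were made.

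Other genes of RNA processing give a scale for these levels. Per kb of exons the 10 SR genes had a median of 1793, while the median over all genes with reads was 120.5. The 28 hnRNP genes, which encode RNA-binding proteins that often oppose SR proteins, had a median of 1753 per kb of exons, and 24 of them were in the top 25%. Hnrnpc was highest of these, at 6487, and Raly lowest, at 2.22 per kb of exons. The 31 SR-related genes, most of which encode other proteins with RS domains, had a median of 1214, with 24 in the top 25%, from Rbm39 at 4483 down to U2af1l4 at 0.0829. In the group of kinases and the importer of SR proteins, 7 of 10 were in the top 25% per kb of exons, with a median of 911. Dyrk1a, at 4122, was highest in that group and Srpk3, at 1.05, lowest. Overlaps with other annotated genes were looked up only for the 10 SR genes. Whether reads lost to overlaps lowered the values of Raly, U2af1l4 or Srpk3 was therefore not examined. Clk1, a kinase that releases SR proteins from nuclear speckles, stood at 1519, and Srpk1 at 672 per kb of exons.

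Core spliceosome genes had a median of 1096 per kb of exons, with 26 of 32 in the top 25%, from Sf3b5 at 99.1 to Cdc5l at 6547. Genes of nonsense-mediated decay and the exon junction complex had a median of 1045, with 9 of 15 in the top 25%, and Magohb lowest at 105. Per kb of gene span the SR genes stood further from these lists. Their median of 1252 compared with 744 for hnRNP genes, 402 for SR-related genes, 268 for core spliceosome genes, 256 for the kinases and importer and 158 for the decay and junction genes. If only exons were counted, this scale lowers genes with long introns more than short, mostly exonic genes such as Srsf2. Srsf12, an SR gene that is not among the 10, had 156 per kb of exons and 20.1 per kb of span, below all of them on both scales. The median PROMPT level was 15.7 for the SR genes, 9.97 for hnRNP genes, 7.63 for core spliceosome genes, 6.45 for the decay and junction genes, 4.56 for SR-related genes and 4.00 for the kinases and importer. These medians were compared without a test, and the lists differ in size.

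**Figure D3:**
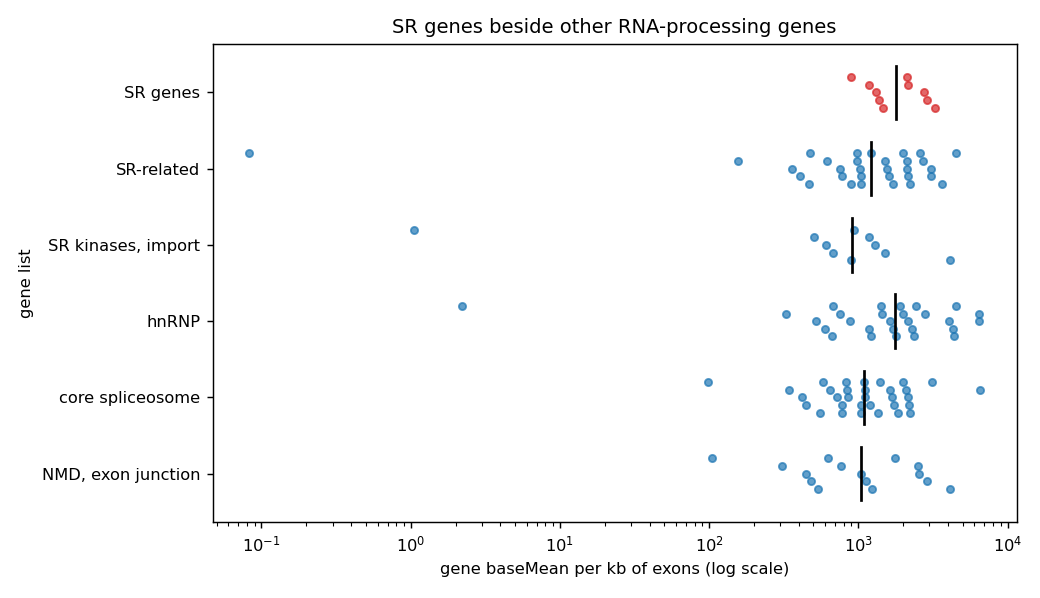
Level per kb of exons (log scale) of each SR gene (red) and of the members of 5 other lists of RNA-processing genes (blue), with the median of each list as a black line. The SR genes span 899 to 3262, and their median of 1793 lies close to the 1753 of the hnRNP genes. The SR range is narrower than in the other lists, which hold as many or more genes, but it leaves out Srsf12. That SR gene, counted in the SR-related list, had 156 per kb of exons. A single gene sets the low end of the SR-related (U2af1l4, 0.0829), kinase and importer (Srpk3, 1.05) and hnRNP (Raly, 2.22) ranges.

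The promoters of the SR genes are rich in CpG. Sequences of 300 bases, 250 before and 50 after the RefSeq start on GRCm38.p6, were found for all 10 genes, and where several starts are listed the nearest to the Gencode start was taken. These starts lay within 33 bp of the Gencode start for 9 genes and 324 bp into the gene for Srsf10. The 10 promoters held a median of 35 CpG dinucleotides and 68.7% G+C, against medians of 7 and 52.7% over all 32851 promoters, and of 23 and 62.7% over the 5337 promoters of genes in the top 25% by baseMean. GGGCGG, the letters bound by Sp family factors, occurred on either strand in 9 of the 10, all but Srsf3, compared with 35.7% of all promoters and 67.7% of those in the top 25%. CCGGAAG, an ETS-type motif, was in 4 of the 10, those of Srsf4, Srsf5, Srsf7 and Srsf11 (8.86% of all and 18.6% of promoters in the top 25%). CCAAT was in the promoters of Srsf1, Srsf2, Srsf3 and Srsf10 (37.4% and 37.7%). TATAAA was in those of Srsf2 and Srsf3 (13.6% and 6.61%). The NRF1 palindrome was in none of the 10 and in 0.971% of all promoters.

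The promoters of 5 genes are printed because they mark the ends of the ranges of gene or PROMPT levels. Srsf4 and Srsf10 had the highest PROMPT levels, Srsf3 and Srsf11 the lowest, and Srsf2, with no listed PROMPT, the highest gene level per kb of span. Capitals mark GGGCGG and CCAAT on either strand, each sequence is given 5′ to 3′ on the strand of the gene, and the source is RefSeq on GRCm38.p6.
Srsf4, chr4:131873387-131873686, plus strand: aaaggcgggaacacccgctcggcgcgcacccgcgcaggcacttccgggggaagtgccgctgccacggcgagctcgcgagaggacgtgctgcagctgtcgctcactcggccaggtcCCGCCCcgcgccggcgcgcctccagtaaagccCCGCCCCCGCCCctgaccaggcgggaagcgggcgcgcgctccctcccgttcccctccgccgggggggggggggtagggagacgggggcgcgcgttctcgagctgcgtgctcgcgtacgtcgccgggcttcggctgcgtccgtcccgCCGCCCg
Srsf10, chr4:135855821-135856120, plus strand: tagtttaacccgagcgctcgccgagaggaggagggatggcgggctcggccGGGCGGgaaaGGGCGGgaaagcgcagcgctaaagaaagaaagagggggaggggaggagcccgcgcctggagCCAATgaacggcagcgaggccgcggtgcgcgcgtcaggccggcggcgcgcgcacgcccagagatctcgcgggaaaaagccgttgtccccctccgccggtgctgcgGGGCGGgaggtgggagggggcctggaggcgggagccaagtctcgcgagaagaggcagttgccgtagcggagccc
Srsf3, chr17:29032410-29032709, plus strand: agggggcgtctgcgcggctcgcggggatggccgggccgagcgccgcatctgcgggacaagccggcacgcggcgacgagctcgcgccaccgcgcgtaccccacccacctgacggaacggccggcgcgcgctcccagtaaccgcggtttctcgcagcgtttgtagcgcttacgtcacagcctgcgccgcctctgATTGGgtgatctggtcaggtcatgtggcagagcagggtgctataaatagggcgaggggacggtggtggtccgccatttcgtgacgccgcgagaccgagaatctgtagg
Srsf11, chr3:158036557-158036856, minus strand: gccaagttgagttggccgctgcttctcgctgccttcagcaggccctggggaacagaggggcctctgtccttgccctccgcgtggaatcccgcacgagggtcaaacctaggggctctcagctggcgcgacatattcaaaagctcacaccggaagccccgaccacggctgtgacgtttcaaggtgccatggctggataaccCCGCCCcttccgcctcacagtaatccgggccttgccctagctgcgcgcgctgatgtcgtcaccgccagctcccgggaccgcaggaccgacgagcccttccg
Srsf2, chr11:116853045-116853344, minus strand: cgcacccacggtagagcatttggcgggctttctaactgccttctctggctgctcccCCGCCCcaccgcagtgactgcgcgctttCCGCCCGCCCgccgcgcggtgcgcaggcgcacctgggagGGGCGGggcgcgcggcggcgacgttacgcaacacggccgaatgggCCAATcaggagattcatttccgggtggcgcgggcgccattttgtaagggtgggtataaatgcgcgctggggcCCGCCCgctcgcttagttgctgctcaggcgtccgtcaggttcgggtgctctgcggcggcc
GGGCGG matches 4 times in Srsf4 and 5 times in Srsf2, counted on both strands and with overlaps, and Srsf2 has 1 CCAAT. Srsf3 shows a single CCAAT, read on the other strand, and no GGGCGG. Srsf10 has 3 GGGCGG and 1 CCAAT, and Srsf11 has 1 GGGCGG.

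Taken over all 8 rows, the PROMPT levels covered a wider range than the gene levels of the SR genes. The authors listed PROMPTs within 1 kb upstream of a start and antisense to it, under the symbol of the closest gene, so each window should have about the same length. The Srsf4 PROMPT had a baseMean of 162, rank 119 of the 23257 PROMPTs with reads, and the Srsf10 PROMPT had 135, rank 165. The Srsf9 PROMPT was next at 28.8, followed by Srsf6 at 21.0 and Srsf5 at 10.4. Low values were found for Srsf7 (7.41), Srsf3 (3.01) and Srsf11 (2.49). The highest and lowest of the 8 differed 65-fold. The highest and lowest of the 10 gene levels differed 17.3-fold by baseMean, 10.1-fold per kb of span and 3.63-fold per kb of exons. The 4 genes with a PROMPT at 10.4 or below have another gene annotated upstream on the PROMPT strand, as described below. The other 4 ran from 21.0 to 162, and as the highest of the 8 they were bound to span less than all 8. For the same 4 genes the gene baseMean ran from 1486 (Srsf9) to 8314 (Srsf10). Per kb of span these genes ran from 252 (Srsf9) to 1266 (Srsf6). No row is listed for Srsf1 or Srsf2. Of genes in the top 25% by baseMean, 82.6% have a PROMPT row.

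Even the low SR PROMPTs were above most PROMPTs with reads, which include those of weakly transcribed genes. The median of the 8 was 15.7, against 0.815 over all PROMPTs with reads and 3.52 over the PROMPTs of genes in the top 25%. Srsf3 and Srsf11 were below this last median. With a lower edge of 4.67 for the top 25% of PROMPTs, 6 of the 8 were in it, and Srsf3 and Srsf11 lay at percentiles 69.1 and 66.5. The number of reads behind the low values was small. The lowest baseMean above 0 in the PROMPT table, 0.0266 in 452 PROMPTs, was taken as 1 read in the deepest library, and no PROMPT can then hold more reads than its baseMean divided by this value. For Srsf11 this gave at most 93.6 reads over all libraries and for Srsf3 at most 113, so that counting error alone is at least 10.3% and 9.42% of their values. For Srsf4 and Srsf10 the limits were 6083 and 5054 reads, with a counting error of at least 1.28% and 1.41%. The difference between Srsf3 and Srsf11 (1.2-fold) was thus of the order of the least counting error. These errors are lower limits and leave out the spread between libraries, so they cannot show that a difference exceeds its error.

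Among genes with a level within 1.25-fold of their own, the Srsf4 and Srsf10 PROMPTs both lay at percentile 99.5 (946 and 895 genes, median PROMPT baseMean 3.00 and 3.46). The Srsf9 PROMPT was at percentile 90.6 and that of Srsf6 at 82.5. The PROMPTs of Srsf5 and Srsf7 were at percentiles 71.2 and 64.9, and those of Srsf11 and Srsf3 at 45.6 and 44.6, so these last were ordinary for genes transcribed at that level. Srsf3 thus joined the highest gene level of the family to a PROMPT near the bottom of the 8. Per 1000 normalized reads in the gene, the PROMPT held 21.0 for Srsf4, 19.4 for Srsf9 and 16.2 for Srsf10, all above the median of 3.40 over 13699 pairs with reads in both. The other 5 were below that median, from 2.97 for Srsf6 and 1.24 for Srsf5 to 0.719 for Srsf7, 0.224 for Srsf11 and 0.117 for Srsf3. The count above the median rose from 3 to 4 when the median was taken over pairs with a gene baseMean of at least 10, and to 5 with at least 1000. The lowest values above 0 differ between the tables (0.0216 for genes, 0.0266 for PROMPTs), so the tables were not taken to share a normalization, and only the order among pairs was read from these ratios.

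The SR genes with high and with low PROMPTs differed in what is annotated upstream. The windows examined were set here from the Gencode vM21 gene starts. They may differ from the regions that the authors counted, which were taken from vM25. In the 1000 bp upstream of the Gencode start, no gene is annotated on the PROMPT strand for Srsf4, Srsf6, Srsf9 and Srsf10, whose PROMPT levels ran from 21.0 to 162. For Srsf3, Srsf5, Srsf7 and Srsf11 a gene is annotated there, and their PROMPT levels ran from 2.49 to 10.4, with no overlap between the groups. The annotated gene is the lncRNA Gm16196 for Srsf3 and the lncRNA Gm20337 for Srsf5, both typed by Gencode as lncRNAs of a bidirectional promoter. Such a lncRNA may itself be the upstream antisense transcript and not a separate neighbour. For Srsf7 it is Ttc39d, a protein-coding gene that starts 153 bp upstream, and for Srsf11 it is Lrrc40, a protein-coding gene that starts 23 bp upstream. The notes deposited with the tables say that PROMPTs near other protein-coding transcripts were removed, yet rows are listed for Srsf7 and Srsf11. Lrrc40 itself had a gene baseMean of 4807 and Ttc39d of 98.9. The Srsf1 and Srsf2 windows, for which no PROMPT is listed, also hold annotated genes on that strand, 2010015M23Rik and Gm11508 for Srsf1 and Mettl23 and Mfsd11 for Srsf2.

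This grouping was made after the PROMPT levels had been seen. Over all genes in the top 25% by baseMean, the 3390 with no annotated gene on the PROMPT strand of the window had a median PROMPT baseMean of 4.86 (quartiles 0.942 and 17.3), and the 770 with one had 1.05 (quartiles 0.432 and 3.48). Over pairs at all gene levels the order of the medians was the opposite, 0.538 for the 15959 without and 0.773 for the 2107 with an annotated gene. Among the 3390, Srsf4 was at percentile 99.2, Srsf10 at 98.7, Srsf9 at 84.6 and Srsf6 at 79.2, where Srsf9 was set among genes transcribed more strongly than itself. Placed among the same 3390, Srsf5 was at percentile 65.1, Srsf7 at 58.1, Srsf3 at 41.8 and Srsf11 at 38.8. Against their own class, the 770, all 4 were above the median, and Srsf5 and Srsf7 were above the upper quartile. Where a gene shares the window and strand, its reads and those of a PROMPT cannot be told apart by position. How the counting treated such reads is not given in the sources used here. The Srsf11 row held 2.49, while Lrrc40, which starts inside that window on the same strand, had a baseMean of 4807, counted over the gene and not over 1 kb. Whether the values of these 4 rows give the level of upstream antisense transcription was not tested. Whether the annotated gene has a part in the difference between the groups was not tested.

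**Figure D4:**
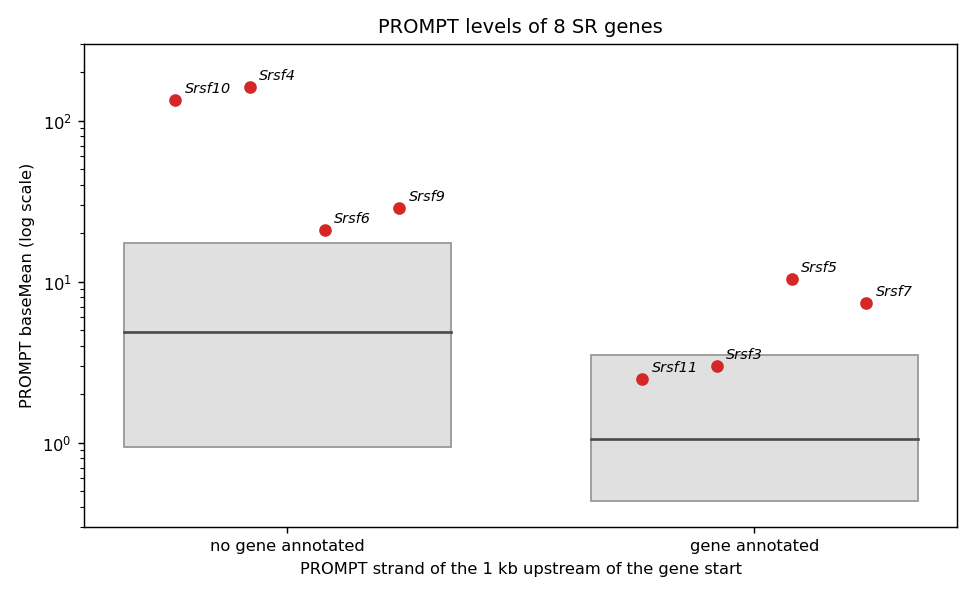
PROMPT baseMean (log scale) of the 8 SR genes with a PROMPT row (red points), split by whether a gene is annotated on the PROMPT strand of the 1 kb window, over grey bars from the lower to the upper quartile of genes in the top 25% by baseMean (dark line, median). The 4 points on the left lie between 21.0 and 162, all above the upper quartile of 17.3, though Srsf9 is not itself in the top 25%. The 4 on the right lie between 2.49 and 10.4, all above the median of 1.05, with Srsf5 and Srsf7 also above the upper quartile of 3.48.

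AATAAA was found in some windows of high PROMPTs and in some of low PROMPTs. Read on the PROMPT strand, these letters, the usual core of a polyadenylation signal, were present once in the windows of Srsf1, Srsf3, Srsf4, Srsf6, Srsf9 and Srsf11 and absent from those of Srsf2, Srsf5, Srsf7 and Srsf10. Over 18066 windows the share with AATAAA was 42.5%. Srsf4 and Srsf11, at the opposite ends of the PROMPT levels, both had it, and Srsf10 did not. Whether AATAAA bears on PROMPT levels was not tested. GGTAAG, the start of a strong 5′ splice site, was found only in the Srsf6 window of the 10 (14.1% of all windows). The G+C content of the Srsf4 and Srsf10 windows, 51.0% and 51.6%, lay between those of Srsf11 (45.3%) and Srsf3 (57.8%), with a median of 49.3% over genes in the top 25%.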

How the data were processed

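TT-seq, which captures RNA made during the labelling, was run on 18 libraries. Per the study's methods, adapters were removed with Trim Galore, uniquely aligned reads were placed on mm10 by STAR, and featureCounts gave counts by strand. The notes deposited with the tables take genes and PROMPTs from Gencode vM25. The submitters' processing notes also name HTSeq. The deposited signal used here is the baseMean, for which the authors scaled the counts by library size factors in DESeq2 and averaged over libraries. A total per library was not used here, so depth is known only through the value of 1 read. The other 4 columns of each table (log2 fold change, its standard error, p-value and adjusted p-value) hold the authors' own comparison of SPT16-depleted with control cells and were left out. Tables of DHS transcripts and eRNAs were not used, since their regions have no coordinates.

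Genes and PROMPTs were matched by symbol, ranked among features with a baseMean above 0, and divided by Gencode vM21 lengths (GRCm38, as mm10). Percentiles count ties at the midpoint. Named were all 10 members and, of 5 lists of RNA-processing genes, the highest and lowest (taken per kb of exons), with Clk1, Srpk1 and Srsf12 added after their values were seen, and 1 gene that the rule names is not reported here. Motifs were searched on both strands of promoters and on the PROMPT strand of windows. Members and lists were chosen with earlier results of these data known. The calculation of the ranks and of the bound on reads was checked on simulated data. Those data could not show whether the lowest deposited value is 1 read of the deepest library. Python 3.11.15, numpy 2.4.6, pandas 2.3.3 and matplotlib 3.10.9 were used. Alternatives were limits on baseMean, length scales and protein-coding PROMPTs only. Protein sequences were not analysed here.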

Additional observations from a re-analysis of the deposited data

How the results depend on the processing

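The number of SR genes in the top 25% of genes was 9 as reported, 9 when genes below a baseMean of 1 or of 10 were dropped, and 10 per kb of exons or per kb of gene span. Of the 8 SR genes with a PROMPT, 6 were in the top 25% of PROMPTs as reported and among PROMPTs of protein-coding genes, and 4 among PROMPTs with a baseMean of at least 1. The PROMPT to gene ratio was above the median of all pairs for 3 SR genes as reported and with the gene taken per kb of span, for 4 among pairs with a gene baseMean of at least 10, and for 5 among pairs with a gene baseMean of at least 1000, where the median is taken over strongly transcribed genes only. Each symbol has a single PROMPT row, so summing rows or taking the highest gives the same values and was not run. No paired analysis was possible because the tables hold no column per library, and for the same reason no library could be left out. Depth limits the low PROMPTs most.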
